A study of Mustela putorius furo with 20 samples.

Results

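The oSVZ below a gyrus was compared with the oSVZ below a sulcus in the same ferret brains, averaged over the onset and the middle of cortical folding. Tissue came from 10 ferrets (Mustela putorius furo), 5 aged 5 days (P5) and 5 aged 15 days (P15), and no animal had been given any treatment that the labels mention. From each animal the oSVZ beneath the coronal gyrus (CG) and the oSVZ beneath the suprasylvian sulcus (SSS) were captured by laser, which gave 10 pairs of libraries and used all 20 libraries of the series (P5 CG, P5 SSS, P15 CG and P15 SSS, n = 5 each). The rule for the members used the labels only and took every CG library against every SSS library, paired by the animal named in both. A library pooled 50 Nissl-stained coronal sections. Amplification of the RNA was isothermal from a single primer (SPIA) and added no molecular identifiers. Animals are numbered 1 to 5 within an age. Because 1 gyrus and 1 sulcus were sampled, a difference between a fold's crest and its floor and a difference between these 2 cortical sites cannot be told apart.

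The oSVZ is the germinal layer that is enlarged in folded brains. It holds basal radial glia, which keep a fibre towards the pial surface and divide repeatedly, and the intermediate progenitors and young neurons that arise from them. Migrating interneurons, oligodendrocyte precursors and, with maturation, astrocytes lie in the same layer, so a captured piece of it is a mixture of these cells. In bulk libraries of this kind, fewer cells of a type and less RNA per cell cannot be told apart.

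Between 2488477 and 4277326 reads per library were assigned to genes, and 12669 of 32057 annotated genes had enough reads to be tested. Total reads did not separate the regions (mean CG minus SSS 45719 ± 448759 reads, SD over 10 animals, exact permutation p = 0.756, two-sided), but 4 of 7 measures of library make-up did at an adjusted p under 0.05. Ribosomal protein genes took 1.91 to 5.88% of the reads in the CG and 1.87 to 4.34% in the SSS, and their share was higher in the CG than in the SSS of 9 of 10 animals (exact p = 0.00977, adjusted p = 0.0228 over 7 measures). The difference was 0.26 to 1.54 percentage points at P5. At P15 it was -0.08, 0.04, 0.33, 1.35 and 0.04 points in animals 1 to 5. More genes had at least 1 read in the CG in 8 of 10 animals (exact p = 0.0195, adjusted p = 0.0342). Fewer of the tested genes had no read in the CG in 9 of 10 animals (exact p = 0.00781, adjusted p = 0.0228). *APC*, a regulator of Wnt signalling that alone took 0.386 to 3.76% of a library, had a smaller share in the CG in 9 of 10 (exact p = 0.00977, adjusted p = 0.0228). Another single gene, *SEH1L*, took 2.75 to 8.92% of a library, and its share did not separate the regions (exact p = 0.195, adjusted p = 0.273). Whether the reads at these 2 genes come from their mRNA was not tested. The P15 SSS library of animal 4 stood apart, with 1371 tested genes without a read, where the rest of the P15 SSS had 49 to 366. Without that animal the ribosomal protein share was higher in the CG than in the SSS of 8 of 9 animals (exact p = 0.0195, adjusted p = 0.0456), and the number of genes with a read no longer passed (exact p = 0.0391, adjusted p = 0.0684). The labelled tissue was checked against cell type markers. The 19 annotated radial glia markers summed to 8119 to 13250.4 CPM (counts scaled by library size) in every library, whereas markers of ependyma and choroid plexus summed to 4.08 to 74.0 CPM, and the cell type markers at 0 in every library were *NEUROG1*, *TMEM119*, *FOXC2* and *HBZ*. At P15 astrocyte markers summed to 7349 to 12488 CPM, about as high as radial glia markers (8318 to 12381 CPM). The sums therefore do not tell these cell types apart at that age.

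Averaged over both ages, 10 genes differed between the CG and the SSS at a false discovery rate (FDR) under 0.05 in edgeR's quasi-likelihood test, fitted with a term for each animal. They were 0.0789% of the genes tested. Higher in the CG were 6 (0.0474%), namely *FABP7*, *EOMES*, *VIM*, *DBI*, *H2AC25* and *RPL21*, and lower were 4 (0.0316%), namely *GPR17*, *MCF2L*, *NETO2* and *CBLB*. A call required the same direction at P5 and at P15, so all 10 had it. The average joins both ages, so a shared direction is common among genes with a small p. It was found in 96.4% of genes at an unadjusted p under 0.05 (edgeR), against 55.4% of all genes tested. In each of the 10 animals 8 to 10 of the 10 genes had the direction of the average, which is the direction by which they were called. *RPL21* is the name that the study's predicted annotation gives to ENSMPUG00000009353, an identifier without a symbol in the files. The number of calls ran from 1 to 17 when 1 animal was left out, being 1 without P5 animal 3 or 4 and 17 without P15 animal 4, when all 10 genes remained. With the ribosomal protein share of each library as a covariate 2 genes were called and none of the 10 remained, although all 10 kept their sign. With that covariate the log2 fold change was 1.62 for *EOMES*, -0.39 for *NETO2* and 0.41 for *FABP7*, close to their values without it, but 0.12 for *RPL21* and 0.37 for *H2AC25*. In edgeR without pairing by animal no gene was called (714 at an unadjusted p under 0.05). The differences were small in most of the 10 genes, between 1.24-fold (*RPL21*) and 1.57-fold (*H2AC25*) apart from *GPR17* (2.07-fold) and *EOMES* (2.88-fold).

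**Figure D1:**
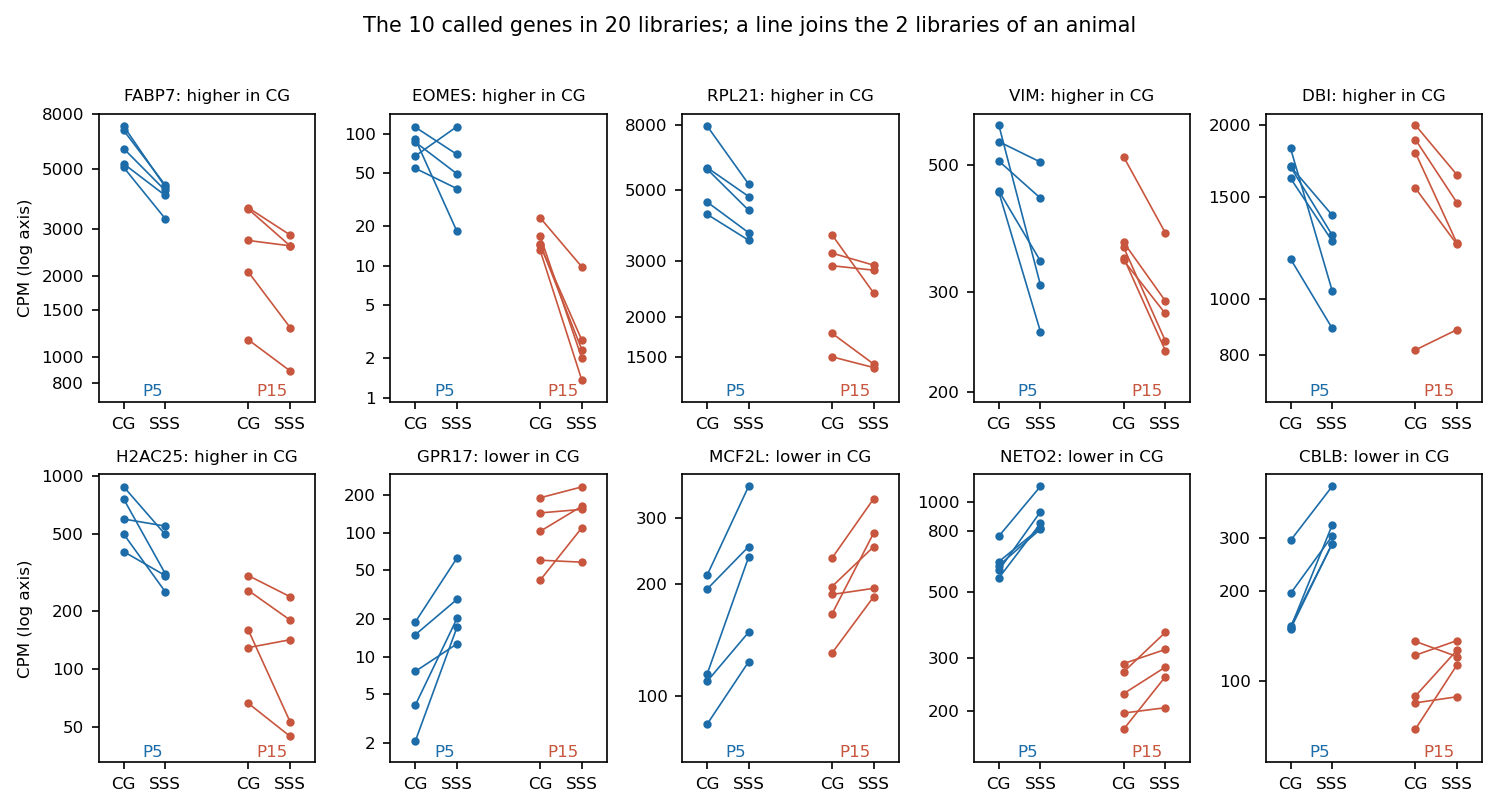
CPM (log axis) of the 10 called genes in each of 20 libraries, with CG and SSS of P5 in blue and of P15 in red and a line joining the libraries of 1 animal. All 10 lines fall from CG to SSS for FABP7, VIM and RPL21, and all 10 rise for MCF2L and NETO2.

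*FABP7*, which binds fatty acids in radial glia, had the smallest p of all genes. At P5 its level was 6979, 7238, 5974, 5088 and 5246 CPM in the CG of animals 1 to 5 and 4371, 4305, 4173, 3278 and 3999 CPM in the SSS. At P15 it was 2721, 1162, 2074, 3554 and 3594 CPM in the CG and 2598, 891, 1292, 2598 and 2852 CPM in the SSS. The CG was higher in 10 of 10 animals, by little in P15 animal 1, and the groups overlapped at P15 but not at P5. The average log2 fold change was 0.49 (SE 0.0577, FDR = 1.24e-04, edgeR), from 0.59 (SE 0.0816) at P5 and 0.38 (SE 0.0817) at P15. The call held without any 1 animal (FDR 1.07e-04 to 0.00133). It was lost with the share of ribosomal protein reads as a covariate (log2 fold change 0.41, FDR = 0.0669) and with the trend of each library with gene span taken out (0.31, FDR = 0.0674), over a range of 1.24e-17 to 0.868 in all alternatives, of which the highest belongs to the fit without pairing.

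*VIM*, the intermediate filament protein of radial glia, was 549.8, 449, 508, 451 and 588 CPM in the CG of P5 animals 1 to 5 and 506, 256, 438, 339.7 and 308 CPM in the SSS. At P15 it was 517, 359, 340.5, 344 and 366 CPM in the CG and 381, 246, 275, 237 and 289 CPM in the SSS. The CG was again higher in 10 of 10 animals, and the groups overlapped at both ages. Of the called genes its difference changed least with age, from a log2 fold change of 0.50 (SE 0.123) at P5 to 0.43 (SE 0.123) at P15 (average 0.46, SE 0.0869, FDR = 0.0258, edgeR). Leaving out any 1 of P5 animals 2 to 5 or P15 animals 1, 2, 3 and 5 ended the call (FDR 0.0586 to 0.152, over 1.90e-04 to 0.859 in all alternatives).

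*DBI*, the acyl-CoA-binding protein also known as diazepam-binding inhibitor, ranged from 1173 to 1820 CPM in the P5 CG against 891 to 1396 in the P5 SSS, and from 817 to 1996 in the P15 CG against 886 to 1638 in the P15 SSS. It was higher in the CG than in the SSS of 9 of 10 animals, P15 animal 2 being the exception (log2 fold change 0.36, SE 0.0687, FDR = 0.0284, edgeR). The call was lost without any 1 of P5 animals 2 to 5 or P15 animals 1, 3 and 5 (FDR 0.0615 to 0.162, over 3.77e-05 to 0.868).

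Over all genes tested 0.0474% were called higher in the CG. Of 19 radial glia markers that could be tested, 2 rose in the CG (*FABP7* and *VIM*), none fell and 17 did not pass. Their median log2 fold change was 0.26, and 16 were positive (84.2%), 13 of them at both ages, against a median of 0.03 and 53.7% positive over all genes. The median over these markers was positive in each of the 10 animals (0.08 to 0.59). *LHX2*, a transcription factor of cortical progenitors (0.66, SE 0.150, FDR = 0.0966), the glutamate transporter *SLC1A3* (0.25, SE 0.0758, FDR = 0.284) and *PAX6*, a master regulator of radial glia (0.60, SE 0.221, FDR = 0.419), came next. *LHX2* passed in 6 alternatives, among them the fits without P15 animal 3 (FDR = 0.0373) or P15 animal 4 (FDR = 0.0409), over 2.21e-07 to 0.884.

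*EOMES* (TBR2), the transcription factor of intermediate progenitors, had the largest fold of the called genes. At P15 its level was 14.6, 16.7, 14.3, 13.0 and 23.0 CPM in the CG of animals 1 to 5 and 2.31, 1.99, 2.73, 1.36 and 9.80 CPM in the SSS, so the groups did not overlap. At P5 it was 67.8, 54.5, 112, 90.6 and 86.1 CPM in the CG and 113, 38.3, 69.6, 18.2 and 49.6 CPM in the SSS, where P5 animal 1 went the other way and the groups overlapped. Most P15 SSS values of *EOMES* were near the floor, and the lowest came from animal 4, whose library had 1371 tested genes without a read. The log2 fold change was 1.53 on average (SE 0.264, FDR = 0.0258, edgeR), 0.69 (SE 0.340) at P5 and 2.36 (SE 0.403) at P15, and the change between ages had an unadjusted p = 0.00397 but an FDR of 0.998. The call was lost without any 1 of P5 animals 2 to 5 or P15 animals 1 and 2 (FDR 0.0520 to 0.0712), with limma-voom (FDR = 0.141), with 1 region term for both ages (FDR = 0.0889), with RNA integrity as a covariate (1.21, FDR = 0.0530), with the newer quasi-likelihood method (FDR = 0.0687) and with the ribosomal protein covariate (1.62, FDR = 0.394), over 6.14e-07 to 0.612 in all alternatives. DESeq2 gave it no adjusted p.

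Of 8 tested markers of intermediate progenitors *EOMES* alone passed, where 0.0474% of all genes tested were called higher. The proneural factors *NEUROD4* (1.50, SE 0.816, FDR = 0.615) and *NEUROG2* (0.67, SE 0.665, FDR = 0.843) had log2 fold changes of the same sign on average, but *NEUROG2* was -0.44 at P5. *TBR1*, the transcription factor that follows *EOMES* in newborn excitatory neurons, lay just outside the threshold in the opposite direction. Its level was 183 ± 164 CPM in the CG and 281 ± 249 CPM in the SSS (mean ± SD over the 10 libraries of each region), and 9 of 10 animals were lower in the CG, with a log2 fold change of -0.71 (SE 0.145, FDR = 0.0517, edgeR), -0.50 at P5 and -0.92 at P15. It passed in 12 alternatives, among them limma-voom (FDR = 0.0360), DESeq2 (8.57e-04) and the fits without P5 animal 1, P15 animal 3 or P15 animal 4, over 1.97e-07 to 0.830. Of 17 markers of young excitatory neurons none was called and 10 were negative (58.8%, against 46.3% of all genes). Their median was -0.11, with *NEUROD6* (-0.42, SE 0.119, FDR = 0.223) and the microtubule protein *DCX* (-0.30, SE 0.0997, FDR = 0.348) after *TBR1*. *FEZF2*, a factor of subcortically projecting neurons that progenitors also express, was positive (0.64, SE 0.231, FDR = 0.405) and higher in the CG in 9 of 10 animals.

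*H2AC25*, a histone H2A gene, ranged from 405 to 879.6 CPM in the P5 CG against 251 to 549 in the P5 SSS, and from 66.0 to 304 in the P15 CG against 44.5 to 236 in the P15 SSS. It was higher in the CG than in the SSS of 9 of 10 animals, P15 animal 1 being the exception (log2 fold change 0.65, SE 0.126, FDR = 0.0343, edgeR). *RPL21*, a protein of the large ribosomal subunit, ranged from 4196 to 7939 CPM in the P5 CG against 3478 to 5212 in the P5 SSS, and from 1499 to 3619.7 in the P15 CG against 1387 to 2906 in the P15 SSS. It was higher in the CG than in the SSS of 10 of 10 animals (0.31, SE 0.0579, FDR = 0.0258, edgeR). The call of *H2AC25* was lost without any 1 P5 animal or P15 animals 2, 3 and 5 (FDR 0.0586 to 0.218, over 1.97e-07 to 0.868), and that of *RPL21* without any 1 of P5 animals 2 to 5 or P15 animals 1, 2, 3 and 5 (FDR 0.0520 to 0.148, over 1.48e-06 to 0.868). Histone and ribosomal protein genes belong to families of near-identical copies, and reads placed at several copies were left out of the counts, so the level of a single member is uncertain.

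All 28 tested genes of the ribosomal protein list, which does not hold *RPL21* because it has no symbol, had a positive average log2 fold change, 25 at both ages (89.3%, against 30.5% of all genes), and none was called. Their median was 0.19, with *RPLP2* (0.38, SE 0.0808, FDR = 0.0823), *RPS27A* (0.27, SE 0.0578, FDR = 0.0823) and *RPL38* (0.33, SE 0.0736, FDR = 0.0844) first. The summed level of the list ran from 38580 to 62251.7 CPM in the P5 CG and from 34644 to 46669.8 in the P5 SSS, and from 16996 to 38490 and 16745 to 35159 CPM at P15. In the fit with the gene-span trend taken out, the median of 26 of these genes was 0.00 and 13 were positive.

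Genes of mitosis leaned towards the CG without a call (median 0.33, positive in 10 of 10 animals). Of 22 genes 20 were positive (90.9%, against 53.7% of all genes), 18 of them at both ages (81.8%, against 30.5%). *TOP2A*, the topoisomerase of dividing cells (0.41, SE 0.0874, FDR = 0.0758), the condensin subunits *SMC2* (0.36, SE 0.1101, FDR = 0.2995) and *SMC4* (0.22, SE 0.0861, FDR = 0.450) and the mitotic kinase *CDK1* (0.42, SE 0.162, FDR = 0.448) had the smallest p. *TOP2A* was higher in the CG than in the SSS of 9 of 10 animals and passed in 8 alternatives, among them limma-voom (FDR = 0.00892), DESeq2 (0.00207), the ribosomal protein covariate (0.0214) and the fit without P15 animal 4 (0.0218), over 0.00207 to 0.868. The 17 genes of DNA replication had a median of 0.10, which was positive in 5 of 10 animals.

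Among the genes lower in the CG, *GPR17*, a receptor of oligodendrocyte precursors that are committed to differentiate, had the largest difference. At P5 its level was 2.10, 15.1, 19.1, 4.08 and 7.62 CPM in the CG of animals 1 to 5 and 17.3, 29.0, 62.4, 20.3 and 12.7 CPM in the SSS. At P15 it was 103, 144, 191, 41.4 and 59.9 CPM in the CG and 163, 154, 233, 109 and 57.8 CPM in the SSS. The CG was lower in 9 of 10 animals, P15 animal 5 being the exception, and the groups overlapped at both ages. The log2 fold change was -1.05 on average (SE 0.190, FDR = 0.0258, edgeR), -1.62 (SE 0.288) at P5 and -0.47 (SE 0.247) at P15. The difference between the ages had an unadjusted p = 0.0055 and an FDR of 0.998. The call was lost without any 1 of P5 animals 3 and 4 or P15 animals 1, 2 and 3 (FDR 0.0520 to 0.0887), with limma-voom (FDR = 0.0554) and with 1 region term for both ages (FDR = 0.0982), over 2.51e-06 to 0.859. It held with the gene-span trend taken out (-1.19, FDR = 0.0277).

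Of 17 tested genes of oligodendrocyte precursors, 1 fell in the CG (*GPR17*), none rose and 16 did not pass. Over all genes tested 0.0316% were called lower. The median of the list was -0.08 with 12 negative (70.6%, against 46.3% of all genes), 9 of these at both ages (52.9%, against 24.96%). *CDK18*, a cyclin-dependent kinase studied in oligodendrocyte precursors, had -2.66 on average (SE 0.616, FDR = 0.0966). It was the only gene with an FDR under 0.1 whose direction differed between the ages. It had -5.37 at P5, where it was called, and 0.04 at P15. Its level was 0 to 0.35 CPM in the P5 CG and 0.73 to 17.6 CPM in the P5 SSS (415 reads over all libraries), so the size of its P5 fold rests on values near 0. The proteoglycan *BCAN* (0.23, SE 0.117, FDR = 0.599) and the calcium channel *ITPR2* (0.18, SE 0.0931, FDR = 0.601) were positive. Of 12 myelin genes none was called and 6 were negative, with *CLDN11*, a tight-junction protein of myelin (-0.53, SE 0.143, FDR = 0.181), first by p.

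*NETO2*, an auxiliary subunit of kainate receptors, was lower in CG than SSS tissue of 10 of 10 animals. At P5 its level was 589.7, 556, 630.2, 766 and 612 CPM in the CG and 925, 846, 818, 1125 and 809 CPM in the SSS, and the groups did not overlap. At P15 it was 228, 174, 197, 269.8 and 288 CPM in the CG and 279.9, 259.9, 205, 366 and 321 CPM in the SSS. The log2 fold change was -0.41 (SE 0.0751, FDR = 0.0258, edgeR), -0.52 at P5 and -0.31 at P15. It was not called without any 1 P5 animal or P15 animals 1, 2 and 5 (FDR 0.0547 to 0.129, over 1.10e-05 to 0.859), but passed with the gene-span trend taken out (FDR = 0.0446).

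*MCF2L*, a guanine nucleotide exchange factor, was 83.8, 211, 114, 193 and 109 CPM in the CG of P5 animals 1 to 5 and 123, 365, 236, 251 and 148 CPM in the SSS. At P15 it was 234, 196, 187, 166 and 130.1 CPM in the CG and 338, 251, 194, 273 and 184 CPM in the SSS. It too was lower in CG than SSS tissue of 10 of 10 animals, although the groups overlapped at both ages (log2 fold change -0.54, SE 0.0981, FDR = 0.0258, edgeR). The call was lost without any 1 of P5 animals 2 to 5 or P15 animals 1, 2 and 5 (FDR 0.0520 to 0.129, over 5.15e-05 to 0.859) and held with the gene-span trend taken out (FDR = 0.0454).

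*CBLB*, an E3 ligase that marks activated receptor tyrosine kinases for removal, was 150.2, 152, 149, 294 and 196 CPM in the CG of P5 animals 1 to 5 and 331, 286, 287, 446 and 304 CPM in the SSS. At P15 it was 135, 84.4, 68.9, 88.9 and 122 CPM in the CG and 120.4, 88.4, 113, 127 and 136 CPM in the SSS, where animal 1 went the other way. The log2 fold change was -0.55 on average (SE 0.103, FDR = 0.0258, edgeR), but -0.85 (SE 0.144) at P5 and -0.26 (SE 0.147) at P15 (unadjusted p of the change = 0.0083, FDR = 0.998). The call was lost without any 1 P5 animal or P15 animals 2, 3 and 5 (FDR 0.0520 to 0.129), with 1 region term for both ages (-0.56, FDR = 0.0889) and with the gene-span trend taken out (-0.50, FDR = 0.0727), over 1.08e-04 to 0.859. Of 39 genes of receptor tyrosine kinase and PI3-kinase signalling *CBLB* alone was called, where 0.0316% of all genes were called lower. The median of these 39 genes was -0.03. The regulatory subunit *PIK3R1* (-0.40, SE 0.0999, FDR = 0.142) was called at P5 and had -0.05 at P15.

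**Figure D2:**
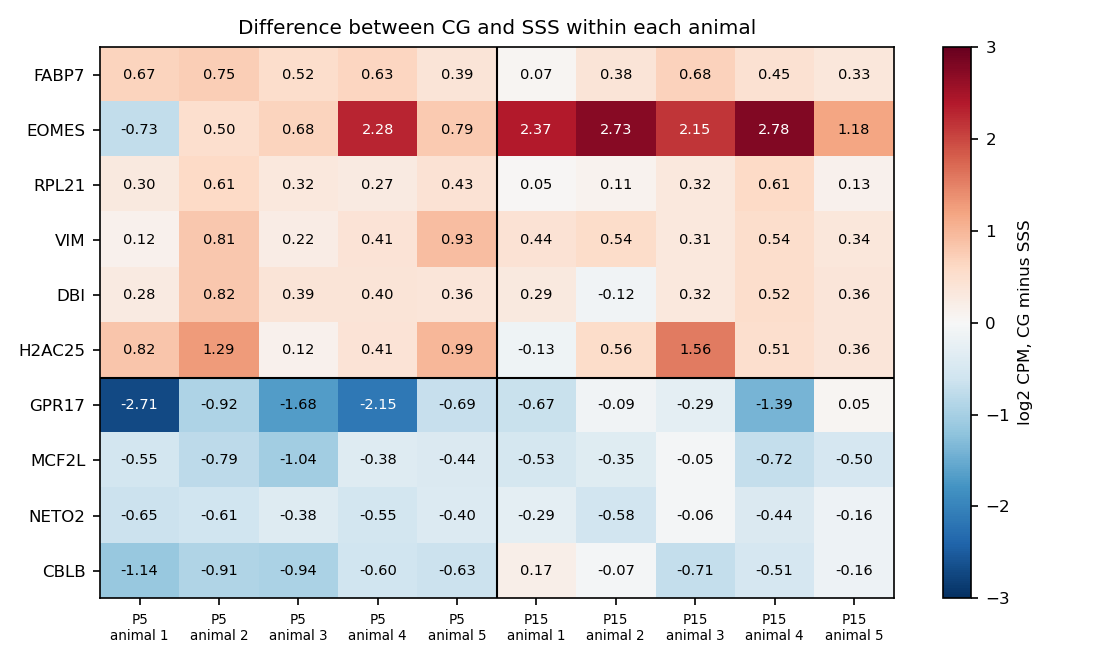
Difference in log2 CPM between the CG and the SSS of each animal (colour and printed value, red higher in the CG), for the 6 genes called higher and the 4 called lower, with P5 animals on the left and P15 animals on the right. GPR17 ranges from -2.71 in P5 animal 1 to 0.05 in P15 animal 5, and EOMES is above 1 in all P15 animals but negative in P5 animal 1.

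Lists of neuronal connectivity leaned the other way, by less in the fit with the gene-span trend taken out. Of 45 tested genes of synaptic vesicles and of glutamate or GABA receptors 1 fell (*NETO2*) and none rose, where 0.0316% of all genes were called lower. The average log2 fold change was negative in 33 (73.3%, against 46.3% of all genes), 22 at both ages (48.9%, against 24.96%). *SYN1*, a protein of synaptic vesicles (-0.69, SE 0.180, FDR = 0.167), the AMPA receptor subunit *GRIA2* (-0.27, SE 0.0787, FDR = 0.249) and the active zone protein *RIMS1* (-0.33, SE 0.102, FDR = 0.2995) followed *NETO2*. The summed level of the list, which includes *NETO2*, was lower in CG than SSS tissue of 10 of 10 animals. The median over its genes was positive in 2 of 10 animals (-0.32 to 0.28). Of 37 axonal and synaptic adhesion genes 27 were negative (73.0%) and none was called, and their median was negative in each of the 10 animals (-0.35 to -0.04). *CNTN4*, an axonal contactin (-0.48, SE 0.109, FDR = 0.0966), passed in 6 alternatives, among them the fits without P5 animal 1 or P15 animal 4 (over 0.00326 to 0.859), and *LRFN5*, a synaptic adhesion molecule, had -1.03 (SE 0.399, FDR = 0.448). Of 27 genes of Slit, Robo, netrin and Eph guidance 19 were negative (70.4%, median -0.18) and none was called, *EPHA3* (-0.34, SE 0.0872, FDR = 0.144) and *SLIT2* (-0.55, SE 0.181, FDR = 0.348) having the smallest p. Among semaphorins, plexins and neuropilins 17 of 28 were negative (60.7%), led by *SEMA6D* (-0.31, SE 0.0781, FDR = 0.144).

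Interneuron markers gave no call in the average, and 12 of 20 were negative (60%, against 46.3% of all genes, median -0.10). *GAD1*, the enzyme that makes GABA, was lower in CG than SSS tissue of 10 of 10 animals (-0.47, SE 0.135, FDR = 0.240, edgeR), with -0.48 at P5 and -0.46 at P15. *NPY* (0.42, SE 0.120, FDR = 0.235) and *SST* (-0.36, SE 0.112, FDR = 0.308) encode interneuron neuropeptides, and their averages joined unlike ages. *NPY* had 0.06 at P5 and 0.79 at P15, and *SST* 0.22 at P5 and -0.94 at P15, where it was called. *ERBB4*, a neuregulin receptor of migrating interneurons, had -0.23 (SE 0.0773, FDR = 0.350).

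Astrocyte markers had a median of 0.26 and no call. They were positive in 18 of 22 cases (81.8%, against 53.7% of all genes), 15 at both ages (68.2%, against 30.5%). The chaperone *CLU* (0.67, SE 0.177, FDR = 0.167), the protease inhibitor *CST3* (0.23, SE 0.0722, FDR = 0.318) and the matrix protein *SPARCL1* (0.18, SE 0.0601, FDR = 0.348) were among those with the smallest p. Their summed level rose over the ages far more than it differed between regions, from 2354 to 3506 CPM in the P5 CG and 1732 to 2862 in the P5 SSS to 8006 to 12488 and 7349 to 11787 CPM at P15. Genes of oxidative phosphorylation (28 of 29 positive, 96.6%, median 0.16) and of proteasome and chaperones (24 of 29 positive, 82.8%, median 0.15) leaned towards the CG without a call. First by p were *NDUFB10* (0.40, SE 0.113, FDR = 0.225) and *PSMA4* (0.37, SE 0.134, FDR = 0.405). *GAPDH*, a glycolytic enzyme, was just outside the threshold (0.43, SE 0.0874, FDR = 0.0517) and passed in 6 alternatives, among them limma-voom (0.00268) and DESeq2 (0.00166), over 3.04e-06 to 0.928. The other 14 glycolysis genes did not pass either, and the median of the list was 0.03. Markers of microglia (10 of 13 positive), endothelium (8 of 16) and mural cells (9 of 14) held no called gene, the microglial adaptor *TYROBP* coming first (0.72, SE 0.219, FDR = 0.296). The microglial median of 0.10 became 0.0014 (7 of 13 positive) without P15 animal 4.

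**Figure D3:**
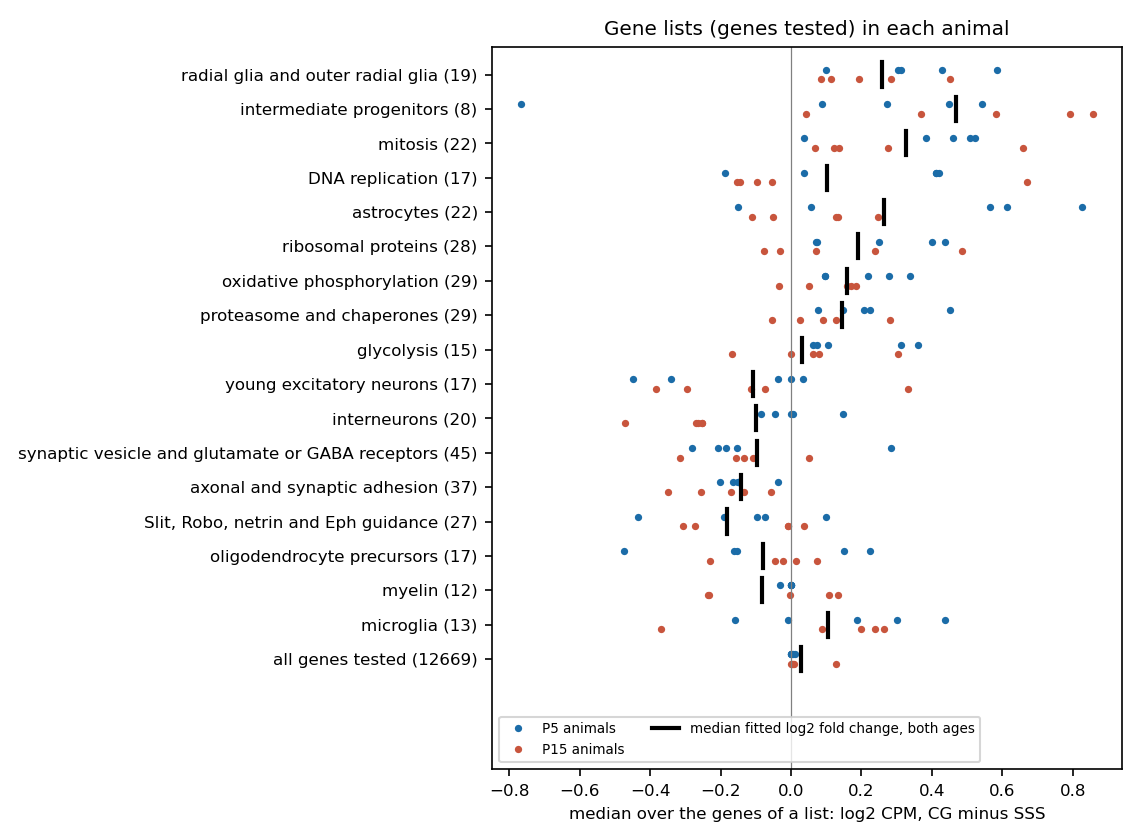
Median, over the tested genes of each list and over all genes (number tested in brackets), of the difference in log2 CPM between CG and SSS, 1 point for each P5 animal (blue) and P15 animal (red), with a black bar at the median fitted log2 fold change over both ages. All 10 points lie above 0 for radial glia and for mitosis and below 0 for axonal and synaptic adhesion, and they straddle 0 for DNA replication, oligodendrocyte precursors and myelin.

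Among lists of signalling and matrix genes, *CBLB* was the only gene called. Over all genes tested 53.7% had a positive log2 fold change. Notch pathway genes had a median of 0.06 (14 of 22 positive), or -0.11 (6 positive) with the ribosomal protein covariate, with the gamma-secretase subunit *NCSTN* (0.56, SE 0.225, FDR = 0.467) and the receptor *NOTCH2* (0.25, SE 0.122, FDR = 0.577) first. Wnt pathway genes had a median of -0.08 (9 of 22 positive), which became 0.02 (12 positive) without P15 animal 4, with *APC* first (-0.21, SE 0.0681, FDR = 0.350), and FGF pathway genes one of 0.01. Matrix and adhesion genes had a median of 0.02 over 46 genes, led by the secreted protease *ADAMTS8* (1.12, SE 0.256, FDR = 0.0966), whose log2 fold change was 2.11 at P5 and 0.14 at P15. Genes of cortical malformations had a median of 0.04 over 38 genes, with the kinesin *KIF5C*, a neuronal motor, first by p. *KIF5C* was lower in CG than SSS tissue of 10 of 10 animals (-0.23, SE 0.0556, FDR = 0.134), by -0.22 at P5 and -0.24 at P15.

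The 14 candidates of the study were chosen from fold changes in these same libraries and from published evidence, and are described without weight on their direction. Not all were assayed by the study's RT-qPCR (quantitative PCR) on the same RNA. There *GLI1* and *TUBA4A* could not be determined, and *SOX9*, *AJAP1* and *SEMA3D* went against its RNA sequencing at P5. *PI4KB*, *FOXC1*, *PRUNE1* and *FOXM1* had the same direction, with smaller fold changes. None was called in the average, 10 were positive, and 8 were positive and 2 negative at both ages. The alpha-tubulin *TUBA4A* had 2.37 (SE 0.694, FDR = 0.249), the phosphatidylinositol kinase *PI4KB* -0.95 (SE 0.307, FDR = 0.348), the receptor *FGFR2* 0.33 (SE 0.121, FDR = 0.416) and the hedgehog effector *GLI1* 2.29 (SE 0.970, FDR = 0.513). *FGFR2* had nearly equal values at the 2 ages (0.32 and 0.34), as did *STAT3* (0.08 and 0.10). *SEMA3D* (-2.46 and 0.72), *AJAP1* (-2.01 and 0.99), *FOXC1* (1.76 and -0.26) and *LIFR* (-0.05 and 0.22) had opposite signs at P5 and P15. The averages of the remaining 5 were 0.49 (SE 0.226) for *FOXM1*, 1.27 (SE 0.660) for *PRUNE1*, 0.26 (SE 0.249) for *SOX9*, -0.72 (SE 0.662) for *LGALS3BP* and 0.10 (SE 0.426) for *CDK6*. Several candidates had few reads over all libraries, such as 255 for *GLI1*, 323 for *PRUNE1*, 353 for *AJAP1* and 397 for *TUBA4A*, against 12691 for *FGFR2* and 13090 for *LIFR*. *TUBA4A* was at 0 to 3.93 CPM in the P5 SSS, and *SEMA3D* at 0 to 8.70 and *AJAP1* at 0 to 6.64 CPM in the P5 CG. Fold changes of such genes rest on values near 0.

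The P5 and P15 pairs come from different animals, so each age repeats the comparison. Fitted alone, the 2 ages shared 10505 genes, and 56.2% of them had the same sign. With genes split into 4 groups by their reads, the share was 50.6% in the group with the fewest and 63.9% in that with the most. Of the 100 genes with the smallest p at P5 alone, 80 kept their sign at P15, and of the 100 smallest at P15 alone 81 kept it at P5. Without P15 animal 4 the shares were 53.8% of 10586 genes, 73 and 76. With all animals and an unadjusted p under 0.001 (edgeR), 46 of 57 genes at P5 alone kept their sign at P15. At P15 alone only 5 genes had such a p, and 2 of them kept their sign at P5. Across genes, which are not independent replicates, the log2 fold changes of the ages correlated with r = 0.101 (Spearman 0.128), and with r = 0.312 in the group with the most reads. The called genes were picked by the average of these same libraries and by a shared sign. Their shared sign at the ages alone was therefore set by that choice, and their values are a description only. P5 alone gave *FABP7* 0.59 (SE 0.0779) and P15 alone 0.37 (SE 0.0899), *VIM* 0.50 (SE 0.128) and 0.43 (SE 0.106), and *NETO2* -0.52 (SE 0.098) and -0.31 (SE 0.122). *GPR17* had -1.68 (SE 0.438) and -0.48 (SE 0.199), and *CBLB* -0.84 (SE 0.126) and -0.26 (SE 0.170). At an FDR under 0.05, P5 alone called 4 genes and P15 alone 0 (edgeR, lowest FDR 0.431). Each of the called genes had an FDR of 0.963 at P15 alone.

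**Figure D4:**
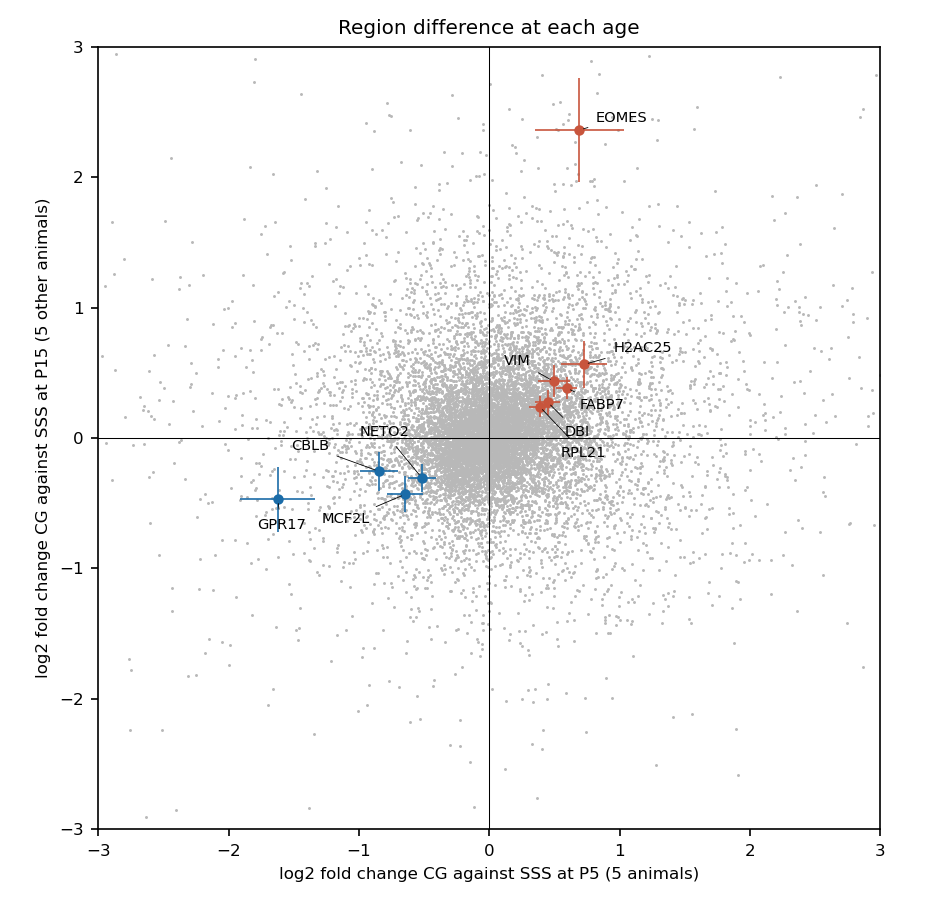
Log2 fold change of CG against SSS at P5 (x axis) and P15 (y axis) for the genes tested (grey, 78 outside the axes), with the genes called higher (red) and lower (blue) in the CG and bars of 1 SE. By the rule for a call, all 10 called genes lie above 0 on both axes or below 0 on both, EOMES at 0.69 and 2.36 and GPR17 at -1.62 and -0.47.

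In the same fit, 5 genes were called at P5 (0.0395%) and 2 at P15 (0.0158%). *FABP7*, *GPR17* and *CBLB* at P5 and *EOMES* at P15 were also called in the average, whereas *PIK3R1* and *CDK18* at P5 and *SST* at P15 were not. *VIM*, *DBI*, *H2AC25*, *RPL21*, *MCF2L* and *NETO2* were called in the average alone. For no gene did the difference between regions itself change between the ages at an FDR under 0.05 (0.0%, edgeR, lowest FDR 0.290). At an unadjusted p under 0.05 edgeR found 488 such genes, DESeq2 called 1 (*SST*) and limma-voom 0.

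By contrast, age changed 2647 of 13015 genes (20.3%) when the 2 libraries of an animal were summed (edgeR, 5 animals against 5, FDR under 0.05), 1508 higher and 1139 lower at P15. Of the 6 genes higher in the CG, *FABP7* (-1.09, SE 0.233, FDR = 0.00216), *EOMES* (-2.78, SE 0.271), *H2AC25* (-1.67, SE 0.304) and *RPL21* (-1.04, SE 0.214) fell from P5 to P15. *VIM* (-0.37, FDR = 0.117) and *DBI* (0.09, FDR = 0.781) did not pass. Of the 4 lower in the CG, *GPR17* rose with age (2.73, SE 0.398, FDR = 5.20e-05), *NETO2* (-1.54, SE 0.162) and *CBLB* (-1.23, SE 0.181) fell, and *MCF2L* (0.26, FDR = 0.471) did not pass.

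Short genes leaned towards the CG across the whole data set. In the fifth of named genes with the shortest span (median 6.40 kb of RefSeq gene span) the median log2 fold change was 0.15 and 66.9% were positive, and in the fifth with the longest (median 182 kb) it was -0.06 and 39.9%. The correlation of log2 fold change with log10 span over 9872 genes was -0.163 (Spearman -0.204). A smooth trend fitted to each library, read as the difference between short and long genes, was higher in the CG than in the SSS of 9 of 10 animals (-0.03 to 0.58, median 0.13, on the log2 scale). It moved with the share of ribosomal protein reads, being largest in P15 animal 4 and P5 animal 2, where that share was 1.35 and 1.54 percentage points higher in the CG. Among these 9872 genes 14 were called before the trend was taken out, 9 higher and 5 lower in the CG, and 5 afterwards, 1 higher and 4 lower. The 5 were *EOMES* (1.39, FDR = 0.0446), *GPR17*, *NETO2*, *MCF2L* and *TBR1* (-0.84, FDR = 0.0454, and 0.0219 before). *FABP7* (0.31, FDR = 0.0674), *CBLB* (-0.50, FDR = 0.0727), *VIM* (0.32, FDR = 0.200) and *DBI* (0.20, FDR = 0.400) did not pass, and *H2AC25* and *RPL21* had no span. The radial glia list kept its median (0.26, 15 of 18 positive), and so in sign did mitosis (0.23, 20 of 22), whereas ribosomal proteins (0.00) and oxidative phosphorylation (0.01, 13 of 23) did not lean. Lists of neuronal connectivity stayed negative with smaller medians. Axonal and synaptic adhesion went from -0.14 to -0.09 (24 of 35 negative), and Slit, Robo, netrin and Eph guidance from -0.18 to -0.13 (16 of 27). Synaptic vesicles and receptors went from -0.10 to -0.08 (29 of 44 negative), and semaphorins, plexins and neuropilins from -0.06 to -0.05 (16 of 28).

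**Figure D5:**
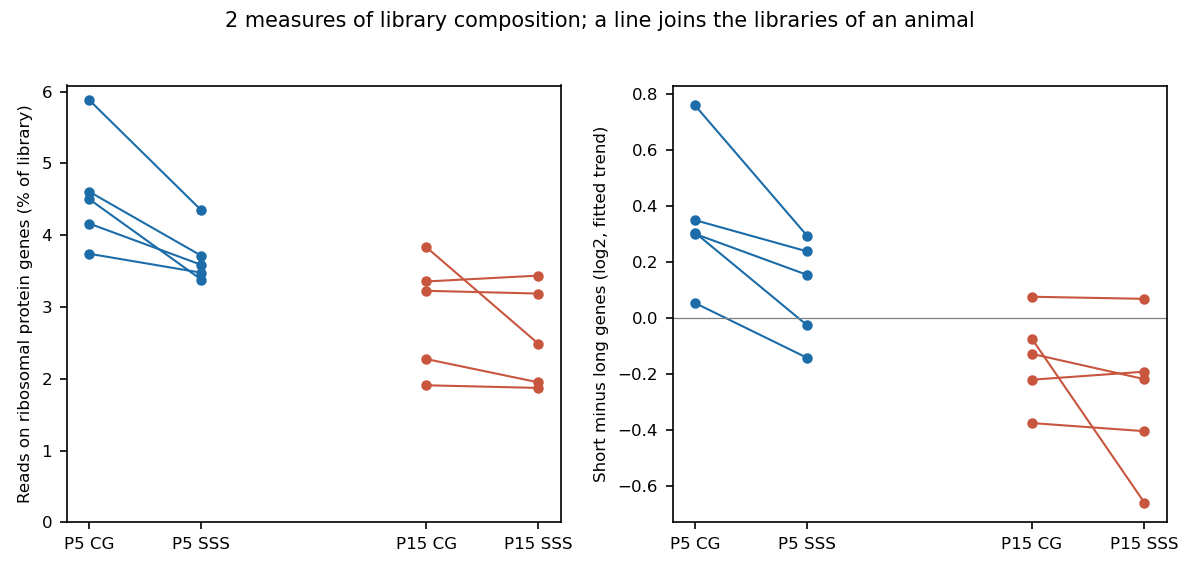
Share of reads on ribosomal protein genes (left, percent of the library) and the fitted difference between short and long genes (right, log2 scale) in each library, a line joining CG and SSS of an animal, P5 in blue and P15 in red. Both measures are higher in the CG in 9 of 10 animals, with the steepest lines in P5 animal 2 and P15 animal 4.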

How the data were processed

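The oSVZ beneath the CG and the SSS was profiled in 20 libraries from 10 ferrets. Upstream, per the labels, the authors used Trimmomatic 0.38 for trimming, FastQC 0.11.9 for quality, STAR 2.7.9a for alignment against the MusPutFur1.0 genome, and featureCounts to obtain counts per Ensembl gene. Reads placed at several sites were left unassigned, and no source used here gives the strand setting. The deposited values are raw counts for 32057 identifiers, used here without change, and all columns of counts belong to the 20 libraries. A column of the same table holds symbols that follow the sorted order of the identifiers. Read in that order, 32 ribosomal protein identifiers had a median level of 716 CPM, against 2.93 CPM when read line by line, and 10533 tested identifiers carried a symbol, 7 symbols being on more than 1 of them.

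Counts were filtered (filterByExpr, minimum count 10, minimum total 15), scaled by TMM and fitted with edgeR 4.0.16 in R 4.3.3 (quasi-likelihood, legacy method). The design held a term for each animal and the region within each age, and the contrast was the mean of both ages. A gene was called at a Benjamini-Hochberg FDR under 0.05 with the same sign at P5 and P15. Levels are CPM, differences within an animal use log2 CPM with a prior count of 2, and fitted fold changes a prior count of 0.125. Each SE of an edgeR fold change was derived from its test, as the absolute log2 fold change divided by the square root of the F statistic. Age was tested on the summed libraries of each animal. Library measures were compared by an exact permutation of signs within animals. Fold changes were checked on simulated counts. Figures were drawn with matplotlib 3.10.9.

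The block rests on the animal named in the labels. Residuals of the libraries of 1 animal correlated with a median of 0.141 (0.046 to 0.246 over 10 pairs), against a median of -0.0466 between animals of an age, the highest being 0.133. The fit without the pairing called 0 genes.

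The alternatives were DESeq2 1.42.0, limma-voom (limma 3.58.1), the newer quasi-likelihood method, other scalings and filters, 1 region term, no replicate block, the RNA integrity number from the study's supplement or the ribosomal protein share as a covariate, and each animal left out. Gene spans came from a RefSeq annotation, matched by symbol. Named genes were all called genes, up to 4 genes of smallest p in each list described, genes called at 1 age and the study's candidates. One gene that this rule names is not reported here. The members and the gene lists were chosen with earlier results of these data known. Each animal gave 1 library per region. The p-values of region therefore measure how the difference between CG and SSS within an animal varied over animals. That variation cannot be told apart from variation of capture and amplification between libraries. The p-values of age measure the spread between animals. Reads without molecular identifiers are not independent molecules.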

Additional observations from a re-analysis of the deposited data

Results flagged for a closer look

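Within each group of 5 libraries, or the 5 animals of an age, a value was marked when its gap to the nearest other exceeded Dixon's limit. Of 88 groups examined 7 held such a value, and chance marks about 1 in 20.

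For *EOMES*, the P15 SSS library of animal 5 had 9.80 CPM against 1.36 to 2.73 in the other P15 SSS libraries. For *VIM*, the P15 CG library of animal 1 had 517 CPM against 340.5 to 366. For *CBLB*, the P5 SSS library of animal 4 had 446 CPM against 286 to 331. For *DBI*, the difference in log2 CPM between CG and SSS was 0.82 in P5 animal 2 against 0.28 to 0.40 in the other P5 animals. The P15 CG library of animal 3 held 4095208 reads against 2618470 to 3038492 in its group. The P15 SSS library of animal 4 had 1371 tested genes with no read against 49 to 366. The 10 most abundant genes took 9.51% of the P15 CG library of animal 2 against 13.1 to 14.2% in its group.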

How the results depend on the processing

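The count of genes called in the average was 10. It was 100 with DESeq2, 83 with no filter on low counts, 63 with RNA integrity as a covariate, 41 with limma-voom, 28 with the newer quasi-likelihood method, 5 with the gene-span trend taken out (14 in the same genes before), 2 with the ribosomal protein share as a covariate (*TOP2A* and *SULT1C4*, the latter seen only after its values) and 0 with no replicate block, that is without the pairing. Leaving out 1 animal gave 1 to 17. It was 7 to 14 with 1 region term, other scalings, a filter of 1 CPM or the genes with a span. Of the 10 genes, 10 remained with no filter, 9 each with DESeq2, RNA integrity and the newer method, 8 with limma-voom, 4 with the span trend taken out and 0 with the ribosomal protein covariate. All 10 had the same sign at both ages in each alternative that gives both, except that the span fits hold only 8 of them, all with the same sign. Both span fits and the repeats without P15 animal 4 of the library measures and of the ages alone were chosen after seeing the data. For region by age, 0 in the fit reported, DESeq2 gave 1, no filter 5, the ribosomal protein covariate 2, and leaving out 1 animal 0 to 1. The count of genes changed by age stayed within 1.5 times.

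Among single genes, the log2 fold change turned to -0.14 for *NEUROD4*, -0.089 for *STAT3* and -0.19 for *CDK6* with RNA integrity, and to -0.54 for *NEUROG2*, -0.070 for *FGFR2* and 0.021 for *MMP16* with the ribosomal protein covariate. Without 1 animal it ran from -0.022 to 0.14 for *LIFR*, from -0.026 to 0.15 for *STAT3* and from -0.11 to 0.32 for *CDK6*. The cause of these changes was not tested. The pooled sections and the 5 animals of an age limit the precision.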

Other observations

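Among the 6 histone genes tested, *H2AC25* was called, 3 were negative and the median log2 fold change was 0.05. The lists that follow held no called gene, and 53.7% of all genes tested were positive. Hedgehog pathway genes were positive in 8 of 10 cases (median log2 fold change 0.25), the transcription factor *GLI3*, which radial glia also express, having 0.30 (SE 0.120, FDR = 0.476, edgeR). Cholesterol synthesis genes were positive in 12 of 17 (median 0.12), but in 7 of 15 (median -0.0091) with the gene-span trend taken out, with the enzymes *SQLE* (0.34, SE 0.105, FDR = 0.297) and *HMGCS1* (0.28, SE 0.106, FDR = 0.436) first and each close in value at P5 and P15. Genes of cortical area patterning were positive in 13 of 27 (median -0.06), and in 16 (median 0.05) without P15 animal 4. The cadherin *CDH11* among them had a negative difference in 9 of 10 animals (-0.34, SE 0.118, FDR = 0.372). BMP and TGF-beta genes had a median of 0.06, with the receptor *ACVR1* first (0.44, SE 0.183, FDR = 0.504). Hypoxia genes had a median of 0.08 and pointed both ways, the carbonic anhydrase *CA9* being positive (0.70, SE 0.298, FDR = 0.515) and the vascular growth factor *VEGFA* negative (-0.35, SE 0.165, FDR = 0.567). Immediate early and stress genes were positive in 5 of 11, and in 7 without P15 animal 4.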
